A study of Mus musculus with 8 samples.

Results

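Hair cells read sound through stereocilia, and 10 genes that build, link or cap these projections were followed in the cochleae of *Opa1*+/- mice and their wild-type (WT) littermates. The genes were *Adgrv1*, *Whrn*, *Pdzd7*, *Ptprq* and *Clrn1*, whose products serve the links and membrane of the hair bundle, and *Espn*, *Fscn2*, *Triobp*, *Eps8* and *Grxcr1*, whose products serve the actin core, its rootlet and its tip. They were picked by symbol, for known roles in stereocilia and hereditary deafness, and all 10 were found among the 47628 entries that name a gene. RNA seq was available for untreated cochleae taken at 21 days of age. The WT group held 4 mice, numbered 4, 5, 6 and 8, and the *Opa1*+/- group held 4 as well, numbered 2 and 7 beside a pair with 3-digit numbers, called mice A and B here in the order of those numbers. Mice of both genotypes were bred on a background that mixes the strains C57BL/6 J and 129 Sv/Pas, and *Opa1*+/- mice carried the human delTTAG deletion on 1 knock-in allele in every cell, beside 1 normal allele. Depth, as counts on named genes, was 17001431 to 20828030 per WT library and 15978051 to 20204154 per *Opa1*+/- library. The comparison asks whether transcripts of the hair bundle differ between genotypes at an age before hearing loss begins in this line.

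A stereocilium is a rod of parallel actin filaments, cross-linked along its length, anchored in the cell by a thin rootlet and arranged with its neighbours in a staircase. Fibrous links tie the rods together, the ankle links near the base being formed by a very large adhesion receptor and the Usher proteins bound to it, and shaft connectors lying above them. Loss of these proteins leaves bundles that are disordered, short or fused, and many of the genes underlie recessive deafness or Usher syndrome, in which deafness comes with retinal degeneration.

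The sequence before the start site is shown for 3 of the genes. *Whrn* stands for the ankle link genes, *Espn* is shown because its counts join 3 start sites, and *Grxcr1* because it had the fewest counts of all 10. RefSeq start sites on GRCm38.p6 were matched for 8 of the 10 genes, with 11 start sites in all, since *Espn* has 3 and *Triobp* has 2. No window was matched for *Ptprq* or *Eps8*. Each run is the 250 bases before a start site, read 5′ to 3′ on the strand of the gene. The counts are per gene and sum over all its start sites, so they do not tell the *Espn* starts apart. The *Whrn* window lies on the minus strand at chr4:63495992-63496241, outside the annotated gene. The windows *Espn* a, b and c lie on the minus strand at chr4:152152390-152152639, before the first exon, and within introns of *Espn* at chr4:152136326-152136575 and chr4:152128926-152129175. The *Grxcr1* window lies on the plus strand at chr5:68031585-68031834, just before the gene. Capitals mark CAGCTG, an E-box sequence, and ATTAAT, which is found in the recognition sequence of POU4 factors.
Whrn: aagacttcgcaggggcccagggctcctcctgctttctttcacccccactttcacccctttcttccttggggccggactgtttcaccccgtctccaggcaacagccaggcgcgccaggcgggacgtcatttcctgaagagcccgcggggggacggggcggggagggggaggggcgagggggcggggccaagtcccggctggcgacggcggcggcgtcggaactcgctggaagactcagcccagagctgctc
Espn a: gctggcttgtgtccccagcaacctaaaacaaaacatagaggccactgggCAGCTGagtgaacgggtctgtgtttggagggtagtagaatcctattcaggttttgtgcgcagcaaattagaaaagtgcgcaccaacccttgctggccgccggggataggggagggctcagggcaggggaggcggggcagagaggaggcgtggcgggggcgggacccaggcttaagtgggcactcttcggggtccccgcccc
Espn b: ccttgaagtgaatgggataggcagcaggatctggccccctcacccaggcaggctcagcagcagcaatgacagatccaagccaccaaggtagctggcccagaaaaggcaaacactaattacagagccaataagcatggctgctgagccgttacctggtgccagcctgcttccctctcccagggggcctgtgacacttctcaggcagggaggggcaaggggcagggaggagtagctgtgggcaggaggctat
Espn c: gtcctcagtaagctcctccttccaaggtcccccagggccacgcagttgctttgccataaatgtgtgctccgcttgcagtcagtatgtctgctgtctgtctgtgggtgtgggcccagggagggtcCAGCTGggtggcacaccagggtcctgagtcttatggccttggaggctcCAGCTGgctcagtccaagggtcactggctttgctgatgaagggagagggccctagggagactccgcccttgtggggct
Grxcr1: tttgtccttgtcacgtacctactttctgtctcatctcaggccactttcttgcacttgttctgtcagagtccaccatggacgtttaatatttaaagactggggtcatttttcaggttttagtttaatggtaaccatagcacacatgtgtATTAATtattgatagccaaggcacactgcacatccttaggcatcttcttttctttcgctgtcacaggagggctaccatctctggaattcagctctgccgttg

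CAGCTG was found in 3 of the 11 windows, and in 13% of all 32851 RefSeq windows of the same length. *Espn* c held it with first bases 126 and 78 bases before the start, *Espn* a held it 201 bases before the start, and the third window with the motif was that of *Pdzd7*, 66 bases before its start. ATTAAT was found 102 bases before the *Grxcr1* start and in no other window of the 10 genes, against 4.39% of all windows. TATAAA was searched too, on both strands, and was found in the *Fscn2* window alone, on the opposite strand, against 12.4% of all windows. The first 2 motifs read the same on both strands, and none of the matches marked in the sequences overlap. The *Whrn* window held none of the 3 motifs.

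*Opa1*, the gene that carries the deletion, was checked first. It had 118.7, 125.9, 111.7 and 122.4 CPM (the count of a gene relative to its TMM-scaled library size) in WT mice 4, 5, 6 and 8, and 63.5, 68.4, 60.4 and 70.02 CPM in *Opa1*+/- mice 2, 7, A and B. Every *Opa1*+/- mouse was below every WT mouse. The log2 fold change, *Opa1*+/- over WT here and throughout, came to -0.87 (standard error 0.0677). Its Benjamini-Hochberg adjusted p was 0.00515 in the quasi-likelihood test of edgeR. The call was lost without *Opa1*+/- mouse 2 (-0.85, adjusted p of 0.0704 by edgeR) and without mice A and B (-0.86, adjusted p of 0.26 by edgeR), while the *Opa1* levels of the genotypes stayed apart. Over all 19366 genes tested this fit called 5, which is 0.0258%.

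None of the stereocilia genes was among these calls. Of the 10 genes, 9 passed the minimum of a mean normalized count over 10 and were tested, and 0 of the 9 had an edgeR adjusted p under 0.05, against 0.0258% of all tested genes. At an unadjusted p under 0.05 the count was also 0, against 6.72% of all genes tested, and DESeq2 and limma voom called 0 of them as well. In none of the 10, the untested *Grxcr1* included, did the 4 mice of a genotype lie apart from the 4 of the other. This happened in 4.31% of all tested genes. The log2 fold changes ran from -0.33 for *Ptprq* to 0.18 for *Pdzd7*, 3 above and 6 below 0, where 49.9% of all tested genes were below 0, with a median of -0.064 against 0.00040 over all genes tested. Cochlear RNA of mixed cells was sequenced in each case. Fewer hair cells, less RNA per hair cell and RNA from other cells therefore cannot be told apart in any of these values.

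**Figure D1:**
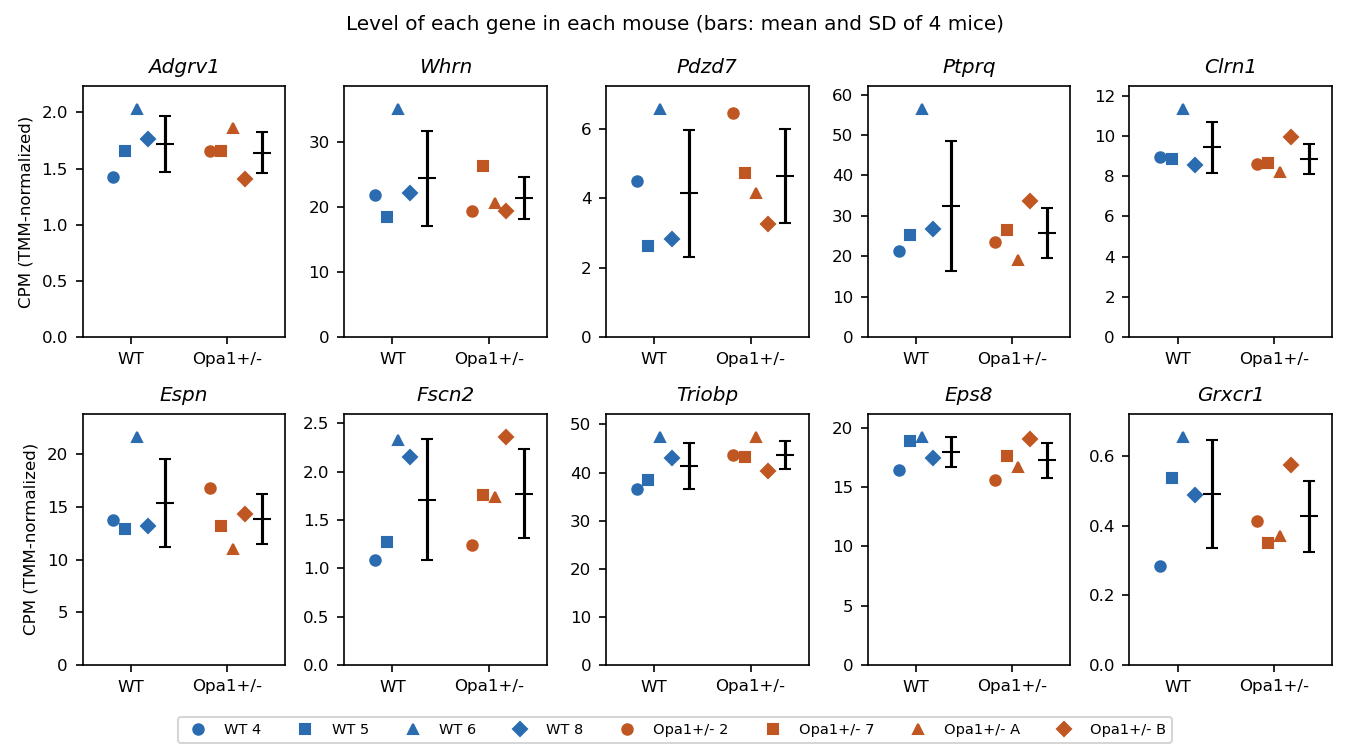
Level of each of the 10 stereocilia genes in each mouse, in CPM on linear axes that start at 0, with WT mice in blue and *Opa1*+/- mice in orange and with the mean and SD of 4 mice per genotype beside the points. The genotypes overlap in all 10 panels, and the blue triangle, WT mouse 6, is the highest point in 8 of them.

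The ankle link genes came first. *Adgrv1* encodes the adhesion G protein-coupled receptor whose huge extracellular part forms the ankle link itself, and lies on chromosome 13 from 81095068 to 81633154 of GRCm38, minus strand. It had 1.43, 1.66, 2.03 and 1.76 CPM in WT mice 4, 5, 6 and 8, and 1.66, 1.65, 1.86 and 1.40 CPM in *Opa1*+/- mice 2, 7, A and B. The genotypes overlapped over nearly their whole range. The WT mean was 1.72 ± 0.250 CPM and that of *Opa1*+/- mice 1.64 ± 0.185 CPM, with SD and n = 4 for each, and the log2 fold change was -0.064 (standard error 0.182, 95% interval -0.47 to 0.34), with an edgeR adjusted p of 0.9597. Only 22 to 36 counts per mouse stood behind these values.

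*Whrn* encodes whirlin, a PDZ scaffold found both at the ankle links and at the stereocilia tip, where it is part of the elongation complex. The gene lies on chromosome 4 from 63414910 to 63495991, minus strand. Levels were 21.8, 18.6, 35.1 and 22.2 CPM in WT mice 4, 5, 6 and 8, and 19.4, 26.3, 20.7 and 19.4 CPM in *Opa1*+/- mice 2, 7, A and B. WT mouse 6 stood well above all others, and the remaining 7 mice overlapped between genotypes. The log2 fold change was -0.18 (standard error 0.191, 95% interval -0.61 to 0.24), with an edgeR adjusted p of 0.871.

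*Pdzd7*, on chromosome 19 from 45026906 to 45045717, minus strand, encodes the PDZ scaffold that joins the ankle link receptor to whirlin. WT mice 4, 5, 6 and 8 had 4.51, 2.64, 6.57 and 2.84 CPM, and *Opa1*+/- mice 2, 7, A and B had 6.44, 4.71, 4.15 and 3.26 CPM. The 2 highest mice, WT 6 and *Opa1*+/- 2, belonged to different genotypes, and the 2 lowest were both WT. Its log2 fold change was 0.18 (standard error 0.315, 95% interval -0.53 to 0.88), with an edgeR adjusted p of 0.933. It varied with the mice that entered, at -0.018 without *Opa1*+/- mouse 2, 0.0090 without WT mouse 5, 0.027 without WT mouse 8, 0.31 without *Opa1*+/- mouse B, 0.49 without WT mouse 6 and 0.44 without mice A and B. With limma voom, run with sample quality weights, it was 0.54 (adjusted p of 0.516), and with DESeq2 0.17. Of the *Pdzd7* exon bases, 206 (5.08%) are shared with *Lzts2* on the opposite strand, and since the sources used here do not say whether counting used strand, part of its counts may belong to that neighbour.

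*Ptprq* and *Clrn1* serve the stereocilia surface. *Ptprq*, on chromosome 10 from 107517049 to 107720051, minus strand, encodes a receptor-like phosphatidylinositol phosphatase needed for the shaft connectors. It had 21.3, 25.3, 56.5 and 26.7 CPM in WT mice 4, 5, 6 and 8, and 23.7, 26.6, 19.1 and 33.6 CPM in *Opa1*+/- mice 2, 7, A and B. WT mouse 6 was 2.23 times the median of the other WT mice, and *Opa1*+/- mouse B came next. Means were 32.5 ± 16.2 CPM for WT and 25.7 ± 6.11 CPM for *Opa1*+/- mice, with SD and n = 4 for each. This made a log2 fold change of -0.33 (standard error 0.299, 95% interval -1.002 to 0.34), with an edgeR adjusted p of 0.849. This was the largest difference of the 9 tested, and it was smaller than the SD of the WT mice.

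*Clrn1* encodes clarin-1, a small membrane protein whose loss causes a form of Usher syndrome, and lies on chromosome 3 from 58844028 to 58885340, minus strand. In WT mice 4, 5, 6 and 8 it had 8.96, 8.84, 11.4 and 8.57 CPM, and in *Opa1*+/- mice 2, 7, A and B it had 8.63, 8.67, 8.23 and 9.96 CPM. The range was narrow, and 6 of the 8 mice lay between 8.23 and 8.96 CPM. WT mouse 6 and *Opa1*+/- mouse B were above them, as for *Ptprq*. The fitted log2 fold change was -0.087 (standard error 0.1199, 95% interval -0.36 to 0.18), with an edgeR adjusted p of 0.9099.

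Of the genes of the actin core, *Espn* encodes espin, which bundles actin filaments, and lies on chromosome 4 from 152120331 to 152152371, minus strand. Its levels were 13.8, 12.9, 21.7 and 13.2 CPM in WT mice 4, 5, 6 and 8, and 16.8, 13.2, 11.02 and 14.4 CPM in *Opa1*+/- mice 2, 7, A and B. The other 3 WT mice lay close together within the *Opa1*+/- range, and WT mouse 6 lay above it. Its log2 fold change came to -0.15 (standard error 0.189, 95% interval -0.57 to 0.28), with an edgeR adjusted p of 0.903.

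*Fscn2*, on chromosome 11 from 120361534 to 120368168, plus strand, encodes the fascin of stereocilia and photoreceptors, another actin cross-linker. WT mice 4, 5, 6 and 8 had 1.08, 1.27, 2.33 and 2.15 CPM, and *Opa1*+/- mice 2, 7, A and B had 1.24, 1.75, 1.73 and 2.36 CPM. Low and high mice occurred in both genotypes, over a range of 19 to 44 counts. The log2 fold change was 0.051 (standard error 0.298, 95% interval -0.62 to 0.72), with an edgeR adjusted p of 0.979. Its sign rested on single mice, since it was -0.11 without WT mouse 4, -0.071 without WT mouse 5 and -0.12 without *Opa1*+/- mouse B.

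*Triobp* encodes the protein that wraps the actin of the rootlet, and also an isoform made in many tissues, which counts per gene do not separate. It lies on chromosome 15 from 78947724 to 79005869, plus strand, and shares 93 exon bases (0.756%) with the antisense gene *Gm10865*. It had 36.5, 38.4, 47.4 and 43.1 CPM in WT mice 4, 5, 6 and 8, and 43.7, 43.3, 47.5 and 40.2 CPM in *Opa1*+/- mice 2, 7, A and B. WT mice 4 and 5 were the lowest of the 8, and the highest WT and *Opa1*+/- mice were alike. Means were 41.4 ± 4.87 CPM for WT and 43.7 ± 2.98 CPM for *Opa1*+/- mice, with SD and n = 4 for each, and a log2 fold change of 0.079 (standard error 0.0888, 95% interval -0.12 to 0.28) was fitted, at an edgeR adjusted p of 0.886.

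*Eps8*, on chromosome 6 from 137477245 to 137654876, minus strand, encodes an actin capping and bundling protein that sits at the stereocilia tip and sets their length. It had 16.4, 18.8, 19.2 and 17.5 CPM in WT mice 4, 5, 6 and 8, and 15.6, 17.6, 16.7 and 19.1 CPM in *Opa1*+/- mice 2, 7, A and B. The genotypes covered nearly the same range, and the SD of log2 CPM over the 8 mice, 0.109, was the smallest of the 10 genes. Its log2 fold change was -0.059 (standard error 0.0865, 95% interval -0.25 to 0.13), with an edgeR adjusted p of 0.916.

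*Grxcr1* encodes a glutaredoxin-like protein of stereocilia and lies on chromosome 5 from 68031835 to 68166398, plus strand. With 5 to 11 counts per mouse it was under the minimum and was not tested. The counts were 5, 11, 11 and 10 in WT mice 4, 5, 6 and 8, and 7, 7, 6 and 9 in *Opa1*+/- mice 2, 7, A and B. The lowest count was from a WT mouse, and the genotypes overlapped. Means were 0.492 ± 0.155 CPM for WT and 0.428 ± 0.101 CPM for *Opa1*+/- mice, with SD and n = 4 for each, and a p of 0.514 in the exact two-sided permutation test, whose smallest possible p is 0.0286. Counting error alone is large at this depth, and a moderate difference in *Grxcr1* was not detectable.

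Divided by exon length, the levels of the 10 genes spread over a wide range. *Ptprq* had 3.88 CPM per kb over all 8 mice, *Triobp* 3.46, *Whrn* 3.13 and *Clrn1* 2.37 CPM per kb. The first place of *Ptprq* rested on WT mouse 6, at 7.53 CPM per kb. Without that mouse *Ptprq* had 3.36 and *Triobp* 3.40 CPM per kb, and in *Opa1*+/- mice the means were 3.43 and 3.55 CPM per kb. *Espn*, *Eps8* and *Pdzd7* had 1.77, 1.43 and 1.08 CPM per kb, *Fscn2* 0.825 and *Grxcr1* 0.429 CPM per kb. *Adgrv1* was the lowest, at 0.0676 CPM per kb, over an exon length of 24878 bases. Neighbours in this order kept it in 8 of 8 mice for *Whrn* over *Clrn1*, *Clrn1* over *Espn*, *Fscn2* over *Grxcr1* and *Grxcr1* over *Adgrv1*. *Espn* was above *Eps8* in 7 of 8 mice. *Ptprq* and *Triobp*, and *Triobp* and *Whrn*, kept their order in only 5 of 8 mice each, and *Eps8*, *Pdzd7* and *Fscn2* kept theirs in 6 of 8 for each step. Exon length was taken over all annotated transcripts, so a gene expressed mainly from a short transcript has a level per kb that is too low.

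**Figure D2:**
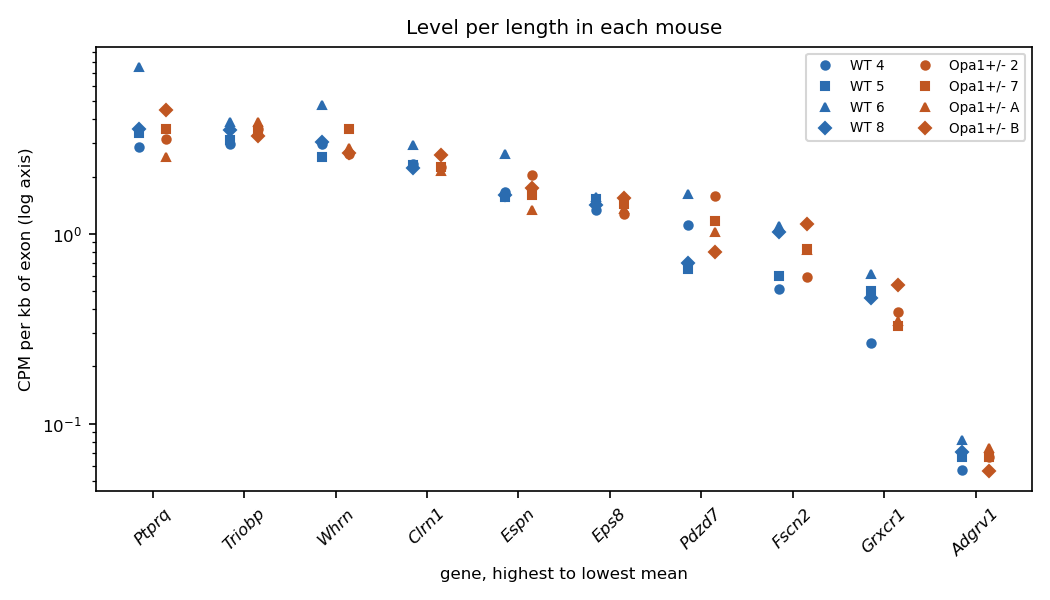
Level per kb of exon in each mouse, in CPM per kb on a log axis, for the 10 genes ordered from the highest mean (*Ptprq*, 3.88) to the lowest (*Adgrv1*, 0.0676). WT mice are in blue and *Opa1*+/- mice in orange, and the ranges of neighbouring genes overlap at every step except that from *Grxcr1* to *Adgrv1*.

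WT mouse 6 stood apart for these genes. It was the highest of the 8 mice in 8 of the 10 genes (80%), all but *Fscn2* and *Triobp*, in 15 of 31 other stereocilia genes, in 7 of 14 hair cell markers, and in 19.8% of all tested genes. Its summed level of the hair cell markers was 188.6 CPM, with the other WT mice at 121.4 to 158.0 CPM and *Opa1*+/- mice at 132.6 to 164.3 CPM. *Lmod3* of that list had 4.84 CPM in WT mouse 6, 0.832 to 1.22 CPM in the other WT mice and 0.946 to 2.31 CPM in *Opa1*+/- mice. It enters the mean log2 CPM of the list with equal weight, and whether muscle RNA adds to its level was not tested. All 14 hair cell markers were detected, among them *Otof*, the otoferlin gene of the hair cell synapse, with a WT mean of 43.2 ± 11.2 CPM and an *Opa1*+/- mean of 41.3 ± 7.25 CPM, with SD and n = 4 for each. WT mouse 6 also had the highest summed levels of supporting cell markers (1318 CPM, others 847.8 to 1271), stria vascularis markers (1329 CPM, others 684.0 to 1106) and skeletal muscle markers (2284 CPM, others 171.4 to 1122), and its sums of bone and otolith organ markers were the highest too. Its sum of spiral ganglion neuron markers, 6385 CPM, lay within the 5702 to 6764 CPM of the other mice, and its sum of erythroid markers, 8734 CPM, was above that of WT mouse 8 alone. By mean log2 CPM, which gives each gene of a list equal weight, WT mouse 6 was again the highest for hair cell, supporting cell, stria vascularis and skeletal muscle markers, was below 4 mice for bone markers (6.35) and was the lowest for spiral ganglion neuron markers (8.21, others 8.64 to 8.93).

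Without WT mouse 6, the log2 fold changes of 5 of the 6 genes below 0 turned to the other side, to 0.072 for *Ptprq*, 0.060 for *Espn*, 0.042 for *Whrn*, 0.021 for *Adgrv1* and 0.013 for *Clrn1*. *Eps8* stayed below 0, at -0.028, and the median of the 9 genes moved from -0.064 to 0.060. No call was gained, and the lowest edgeR adjusted p among the 9 was then 0.655, for *Triobp*. The direction of these 5 small differences therefore rested on 1 mouse.

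**Figure D3:**
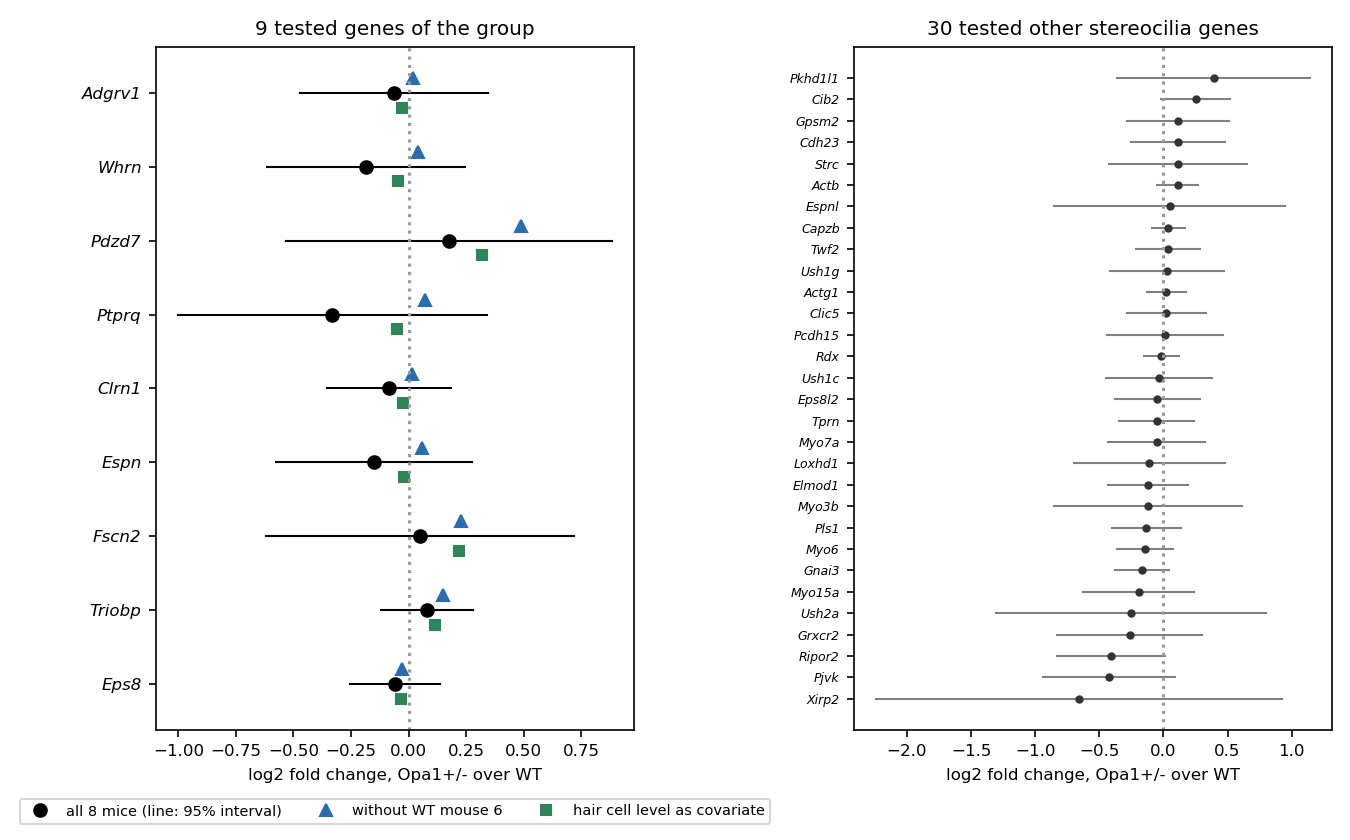
Log2 fold changes, *Opa1*+/- over WT, of the 9 tested stereocilia genes on the left and of 30 other stereocilia genes on the right, on axes of different range. Circles are the fit to all 8 mice with its 95% interval, and every interval on both sides covers 0. On the left only, triangles are the fit without WT mouse 6 and squares the fit with the hair cell marker level as a covariate.

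Taking the mean log2 CPM of the 14 hair cell markers as a covariate moved *Ptprq* from -0.33 to -0.051, and its standard error from 0.299 to 0.0709. *Whrn* moved to -0.045 (standard error 0.135), *Espn* to -0.021 (standard error 0.130) and *Clrn1* to -0.026 (standard error 0.0944), and none of the 9 was called. *Adgrv1* moved to -0.027 and *Eps8* to -0.032. The 3 genes above 0 moved farther from it, *Pdzd7* from 0.18 to 0.32, *Fscn2* from 0.051 to 0.22 and *Triobp* from 0.079 to 0.11. The spread between mice was also compared before and after the hair cell level was taken off. After the hair cell mean of each mouse was subtracted, the SD of log2 CPM over the 8 mice went from 0.482 to 0.282 for *Ptprq*, from 0.303 to 0.194 for *Whrn*, from 0.292 to 0.170 for *Espn* and from 0.149 to 0.0983 for *Clrn1*. For *Triobp*, *Eps8* and *Adgrv1* it grew instead, from 0.135 to 0.196, from 0.109 to 0.161 and from 0.168 to 0.204. *Fscn2* went from 0.411 to 0.302 and *Grxcr1* from 0.322 to 0.219. *Pdzd7* hardly moved, from 0.486 to 0.458.

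**Figure D4:**
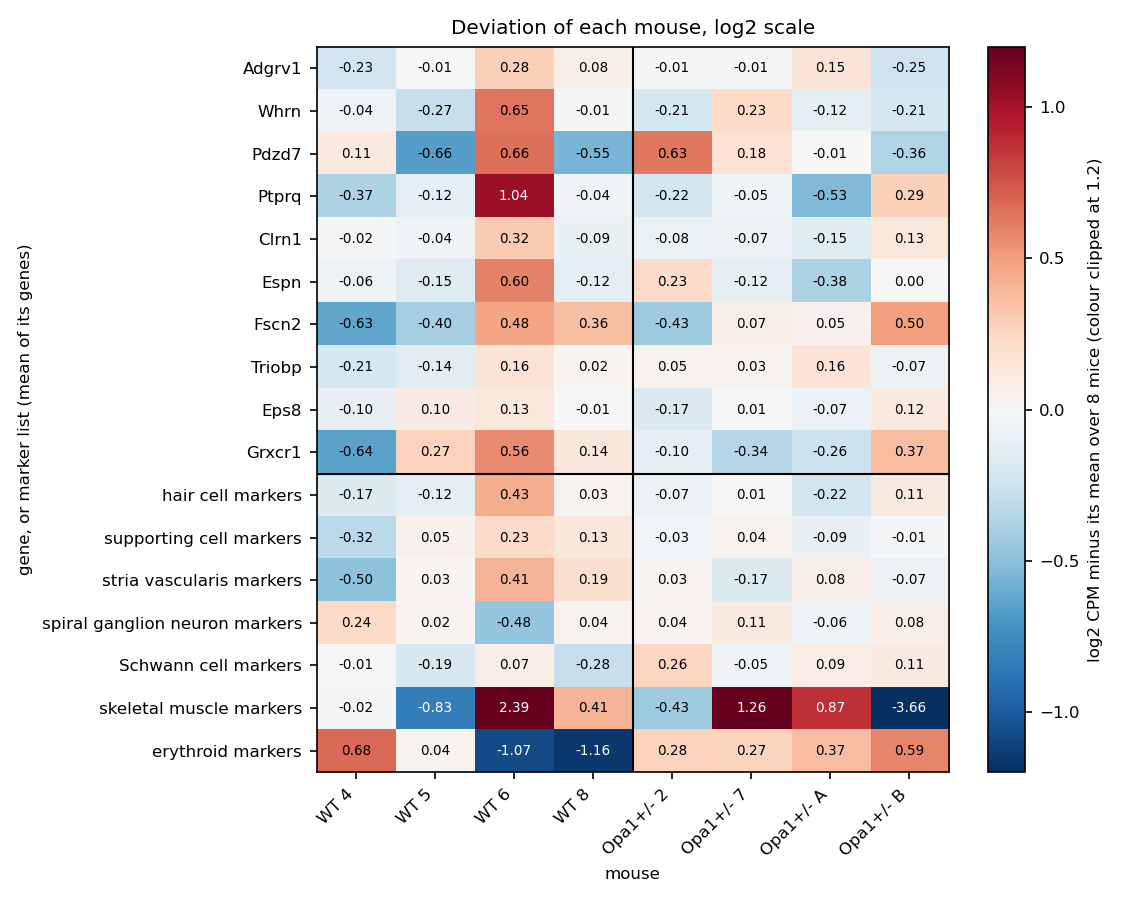
Deviation of each mouse from the mean over the 8 mice, in log2 CPM, for the 10 stereocilia genes above the line and for the mean of each marker list below it, with red for higher and blue for lower. The column of WT mouse 6 is positive for all 10 genes, from 0.13 for *Eps8* to 1.04 for *Ptprq*, and is 0.43 for the hair cell markers.

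Marker lists of the cell types in the libraries held no gene that edgeR called, in 10 lists. The 14 hair cell markers had a median log2 fold change of -0.069, with 5 above 0. At an unadjusted p under 0.05 there was 1 gene in the hair cell list, *Ikzf2*, and 1 of 10 in the Schwann cell list, *Egr2*, both named after their values were seen, against 6.72% of all tested genes. *Ikzf2* had a log2 fold change of -0.35 and *Egr2* 0.34, each with an edgeR adjusted p of 0.722. In both the genotypes did not overlap, as in 4.31% of all tested genes. Schwann cell markers had a median of 0.1993 with 10 of 10 genes above 0, stria vascularis markers -0.14 with 2 of 10, skeletal muscle markers -0.71 with 0 of 10, and erythroid markers 0.56 with 9 of 9. Erythroid markers summed to 7749 to 21477 CPM in WT mice, against 15081 to 25065 CPM in *Opa1*+/- mice, and skeletal muscle markers to 318.5 to 2284 CPM in WT mice, against 171.4 to 1122 CPM. Marker genes of the otolith organs, which also carry hair bundles, summed to 12.0 to 17.6 CPM in WT mice, against 10.3 to 17.0 CPM. The part of the lists other than the hair cell list in the levels of the 10 genes was not tested.

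Other genes of the stereocilium were not called either. Of a list of 31 partners, cross-linkers, motors and surface proteins, 30 were tested and 0 were called by edgeR, DESeq2 or limma voom, against 0.0258% of all tested genes in the edgeR fit. At an unadjusted p under 0.05 edgeR gave 0, against 6.72% of all tested genes. DESeq2 gave 1, against 1123 of all 19366 tested genes, and limma voom gave 1, against 1994 of them. Other edgeR settings gave at most 3. These were with the hair cell covariate (1451 of 19366 over all genes), without WT mouse 4 (2006 of 19361) and without the count minimum (1586 of 34939). In the edgeR fit 13 were above 0 and 17 below, with a median log2 fold change of -0.040. The 4 with the lowest p were *Ripor2*, *Cib2*, *Pjvk* and *Gnai3*. *Ripor2*, whose product lies at the stereocilia base, had means of 21.1 ± 5.91 CPM (WT) and 15.9 ± 2.54 CPM (*Opa1*+/-), with SD and n = 4 for each, a log2 difference of -0.41 (standard error 0.187) and an edgeR adjusted p of 0.749. *Cib2*, a calcium-binding part of the transduction complex, had means of 30.2 ± 2.04 CPM (WT) and 36.0 ± 6.73 CPM (*Opa1*+/-), a log2 difference of 0.25 (standard error 0.119) and an edgeR adjusted p of 0.755. *Pjvk*, the pejvakin gene, had a log2 fold change of -0.42 (standard error 0.229), and *Gnai3*, a G protein subunit of the tallest row, -0.16 (standard error 0.0942). Without WT mouse 6 *Ripor2* went to -0.1966 and *Pjvk* to -0.22, *Cib2* went to 0.11 without *Opa1*+/- mouse B, and *Gnai3* ranged from -0.22 to -0.11 with 1 mouse left out.

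By level per kb the list was led by *Actb* (494.9 CPM per kb), *Actg1* (384.6), *Capzb* (56.1) and *Rdx* (41.9), actins, a filament capping subunit and a membrane linker that many cells make. Their log2 fold changes were 0.11, 0.023, 0.038 and -0.015, with standard errors of 0.0573 to 0.07. *Actg1* was -0.015 without WT mouse 6, *Rdx* was 0.020 without *Opa1*+/- mouse 7, and *Capzb* ranged from 0.012 to 0.063 with 1 mouse left out. *Cib2* and *Gnai3* followed at 23.1 and 19.0 CPM per kb, and the 10 genes above lay between 0.0676 and 3.88 CPM per kb. *Myo3a*, a motor of the stereocilia tip, was under the count minimum and was picked out after its values were seen. Its counts were 9, 17, 9 and 16 in WT mice 4, 5, 6 and 8, and 8, 7, 4 and 5 in *Opa1*+/- mice 2, 7, A and B. It was the only one of the 31 whose genotypes did not overlap, at 0.514 to 0.830 CPM in WT against 0.248 to 0.473 CPM in *Opa1*+/- mice, with a p of 0.0286 in the exact two-sided permutation test, the smallest that 4 against 4 mice can give, and not adjusted for the 31 genes. Groups that did not overlap made up 4.31% of all tested genes, and 1 in 31 is near that share. The share leaves out genes under the count minimum, such as *Myo3a*. Of the 30 tested genes of the list, 0 had groups that did not overlap.

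Paralogs of the 10 genes differed widely in level. *Fscn1*, the fascin of many tissues, had 7.65 CPM per kb against 0.825 for *Fscn2*, and *Eps8l2*, which also serves stereocilia, had 10.5 CPM per kb against 1.43 for *Eps8* and 0.729 for *Eps8l1*. *Ptprb*, an endothelial phosphatase, had 6.70 CPM per kb against 3.88 for *Ptprq*. *Grxcr2* was at 1.198 CPM per kb, above *Grxcr1* at 0.429, *Espnl* at 0.537, below *Espn* at 1.77, and *Clrn2* at 0.862, below *Clrn1* at 2.37. *Fscn3*, *Eps8l3* and *Clrn3* were each at or below 0.0316 CPM per kb and were not tested. None of the paralogs that were tested was called, with log2 fold changes from -0.26 for *Grxcr2* to 0.16 for *Clrn2*.

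The genes whose level followed each of the 10 most closely over the mice were found among all tested genes by Pearson's r of log2 CPM over 8 mice, as a description without a test. Such a search over 19366 genes gives high values for any gene. *Ptprq* was followed by *Slc25a18* (r = 0.968, and 0.882 over 7 mice without WT mouse 6) and *Sall2*. *Whrn* was followed by *Trp53i11* (r = 0.987, and 0.952 without WT mouse 6) and *Slc30a5*, *Clrn1* by *Tcte2* (r = 0.987) and *Blcap*, and *Espn* by *Dkk3* (r = 0.972) and *Aspg*. For *Adgrv1* the closest were *Sox8* (r = 0.982) and *Tcea3*, for *Pdzd7* *E230013L22Rik* (r = 0.987) and *Gm10676*, and for *Fscn2* *Gm10702* (r = 0.972) and *Cabp7*. *Triobp* was followed by *Lman2* (r = 0.972) and *Zfp651*, *Eps8* by *Lrrc38* (r = 0.959) and *Gm16794*, and *Grxcr1* by *Tbl2* (r = 0.960) and *Slc18b1*. None of these 20 genes was a hair cell marker or another stereocilia gene of the lists. Among the 5% of tested genes most like *Espn* were 5 of the 14 hair cell markers and 11 of 38 tested stereocilia genes (30 of the list and the other 8 tested of the 10), and for *Ptprq* 5 and 9. *Grxcr1* had 2 and 10 (of 39), *Eps8* 1 and 6, *Whrn* 2 and 5, *Clrn1* 3 and 3, and *Fscn2* 3 and 2. All were counted over 8 mice, with WT mouse 6 among them. For *Triobp*, *Pdzd7* and *Adgrv1* no hair cell marker was among that 5%.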

How the data were processed

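Cochlear RNA of 8 mice was made into CORALL libraries and sequenced in read pairs, 80 nucleotides a read. The study's methods give TRI Reagent and NucleoSpin columns for RNA extraction, while the labels give TRI Reagent or an RNeasy kit. The authors used the CORALL analysis pipeline with molecular identifiers against amplification bias, trimmed the reads, mapped them to GRCm38 with STAR, per the submitters' processing notes, and deposited raw counts, 1 whole-number table per mouse. The program that counted reads per gene within that pipeline and its use of strand are not given in the sources used here. Groups were taken from the sample titles. The 15 entries without a gene name, 0.111% to 0.124% of counts, were left out.

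Library sizes were scaled by TMM. Genes with a mean count over 10 after DESeq2 normalization were tested, 19366 in all, with the quasi-likelihood test of edgeR 4.0.16 in R 4.3.3, genotype as the only term, and Benjamini-Hochberg adjustment over all of them at 0.05. DESeq2 1.42.0 and limma 3.58.1 voom with sample quality weights served as alternatives. The standard error of a log2 fold change is its size over the square root of F. Positions and exon lengths are from GENCODE vM21. For single values an exact permutation test, two-sided, ran over 70 arrangements of the mice. Log2 CPM used a prior count of 2. The tests were checked on simulated counts.

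Named were the 10 stereocilia genes, *Opa1*, of 31 other stereocilia genes those called, the 4 of lowest p and the 4 of highest level per kb, the paralogs, and the 2 genes most like each of the 10. *Myo3a*, *Otof*, *Lmod3*, *Ikzf2* and *Egr2* are named outside this rule. The 10 genes and the lists were chosen with earlier results of these data known. Nothing in the labels says that the mice had separate litters or days, so p-values measure the spread between these 8 samples.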

Additional observations from a re-analysis of the deposited data

Results flagged for a closer look

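In 3 of the 10 stereocilia genes, WT mouse 6 was farther from the other WT mice than Dixon's test allows at the 95% level. These were *Ptprq*, with 56.5 CPM in WT mouse 6, *Espn*, with 21.7 CPM, and *Clrn1*, with 11.4 CPM. Dixon's test was applied to 22 groups of 4 mice, of which 3 stood out, all through WT mouse 6, and chance gives about 1 in 20. The 3 genes share that mouse and are not independent of each other. The same mouse was 2.31 times the median of the other WT mice for *Pdzd7* and 1.61 times for *Whrn*, which did not stand out by this measure.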

How the results depend on the processing

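The counts of called genes, 0 of the stereocilia genes tested and 0 of the others, held under all 19 alternatives. Those tested were 9 and 30, but 10 and 31 without the filter and 9 and 31 without both 3-digit mice. *Triobp* kept its sign under all 19 (0.025 to 0.15), as did *Eps8* (-0.11 to -0.011). The median of the 9 genes was -0.12 to 0.060 when 1 mouse was left out. Leaving out 1 mouse at a time, *Ptprq* ranged from -0.49 to 0.072, *Whrn* from -0.30 to 0.042, *Espn* from -0.25 to 0.060, *Clrn1* from -0.15 to 0.013, *Adgrv1* from -0.14 to 0.021, *Pdzd7* from -0.018 to 0.49 and *Fscn2* from -0.12 to 0.23. *Fscn2* was -0.18 without both *Opa1*+/- mice with 3-digit numbers. *Grxcr1*, tested only without the filter, had a log2 fold change of -0.22 (standard error 0.372, edgeR adjusted p of 0.905). Over all genes, 5 calls became 25 with DESeq2, 10 with limma voom and sample quality weights, 10 with robust estimation, 12 without the filter, 2 with the hair cell covariate, 11 at an adjusted p under 0.1, 0 without both 3-digit mice, and 0 to 9 when 1 mouse was left out. The 9 were without WT mouse 4, 8 without *Opa1*+/- mouse 7, 2 without WT mouse 5, 1 each without WT mouse 6 or 8 or *Opa1*+/- mouse A or B, and 0 without *Opa1*+/- mouse 2. *Opa1* was -0.90 to -0.83 when 1 mouse was left out, with an edgeR adjusted p of 0.0704 without *Opa1*+/- mouse 2, and -0.86 (edgeR adjusted p of 0.26) without both 3-digit mice. The cause of these shifts was not tested. The 3-digit numbers occur only in *Opa1*+/- mice, so the values without both rest on *Opa1*+/- mice 2 and 7. No paired analysis was possible because the sources used here do not say which mice shared a litter. Depth limits *Grxcr1*, *Adgrv1* and *Fscn2* most, at 5 to 44 counts per mouse.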
